A study of Homo sapiens with 24 samples.

Results

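The earliest measured mRNA difference between A549 cells in CAF medium and A549 cells in control medium, at 3 h, was described from 1 polyadenylated RNA library of each medium. Members were the genes with at least 5 RPKM in either of these 2 libraries, where RPKM counts the reads of a gene relative to its length and to library depth. They were 7790 of the 22026 genes in the table, and 6943 of them reached 5 RPKM in both libraries. A further 565 members reached it in CAF medium only and 282 in control medium only, and those had to differ to some degree. At the threshold, GPRIN2 was a member with 5.0 RPKM in CAF medium and 4.66 RPKM in control medium, and MTOR was not, with 4.99 RPKM in CAF medium and 4.86 RPKM in control medium.

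A549 is an established cell line that came from an adenocarcinoma of the human lung. The study treated it with CAF conditioned medium or control medium and sampled both at 3, 6, 12, 24, 48 and 72 h. Its title concerns markers of the epithelial-mesenchymal transition, in which epithelial cells lose adhesion molecules and take on migratory traits. CAF is not spelled out in the labels, and usually stands for cancer-associated fibroblast, a stromal cell that secretes cytokines, growth factors and matrix proteins. The labels say neither how the control medium was made nor when the medium was last changed. The design text mentions 2 biological replicates, but each medium and time has 1 column of values. Every difference at 3 h therefore compares 2 libraries, has no replicate check and is given without a test.

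A change of medium and secreted factors can act within hours on genes that need no new protein for their induction. These include the immediate early genes downstream of growth factor receptors, the chemokines and feedback inhibitors controlled by the transcription factor NF-kB, and the matricellular genes controlled by YAP and its DNA-binding partner TEAD. Genes of nutrient sensing and of cell cycle exit can respond as fast, and many of the cell cycle exit genes are held down while growth factors are present.

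Depth worked out from the steps between low values was 29.26 M reads for the CAF medium library and 26.57 M reads for the control library, within the 23.89 to 40.58 M reads of all 12 libraries. Epithelial keratins were among the most abundant mRNAs in both media, with KRT8 at 2070.14 RPKM in CAF medium and 1937.34 RPKM in control medium. The 12 fibroblast genes summed to 13.32 RPKM in CAF medium and 8.75 RPKM in control medium, inside the 8.31 to 17.44 RPKM of the 10 later libraries, and 9 of the 12 were under 1 RPKM in both. The 8 leukocyte genes summed to 14.52 RPKM in CAF medium and 23.3 RPKM in control medium (19.92 to 32.39 RPKM in the later libraries), almost all of it CD68, while PTPRC was at 0.0 RPKM in CAF medium and 0.01 RPKM in control medium. The 6 endothelial genes summed to 0.18 RPKM in CAF medium and 0.11 RPKM in control medium. Of the alveolar and mucous genes only ABCA3, a lipid transporter of alveolar type II cells, was a member, at 5.45 RPKM in CAF medium and 7.24 RPKM in control medium.

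At 3 h most members differed little between the media. The median log2 difference (CAF medium minus control, of RPKM + 0.5) was 0.06, and 7065 members (90.7%) lay within 1.5-fold of no difference. Of all members 58.5% were higher and 41.3% lower in CAF medium by any amount, and counts of higher and lower members in a gene list are to be read against these shares. CAF medium was at least 2-fold higher for 57 members (0.732% of all members) and at least 2-fold lower for 80 (1.03%). Among the members that reached 5 RPKM in both libraries, 19 were higher and 47 lower. Of the 57 higher members, 38 were members through CAF medium only, so that their control values had to be under 5 RPKM, and only PDK4 had at least 50 RPKM in CAF medium. Of the 80 lower members, 22 had at least 50 RPKM in control medium. On this log2 scale, whose pseudocount of 0.5 shrinks the folds of low genes, 1 member was at least 4-fold higher (KRT19) and 9 were at least 4-fold lower. The 9 include short gene models with few reads, such as SNORD104 (4 reads in CAF medium, 20 in control medium) and SNHG9 (7 and 36). Differences of mRNA level in such bulk libraries cannot tell fewer expressing cells from less RNA per cell.

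**Figure D1:**
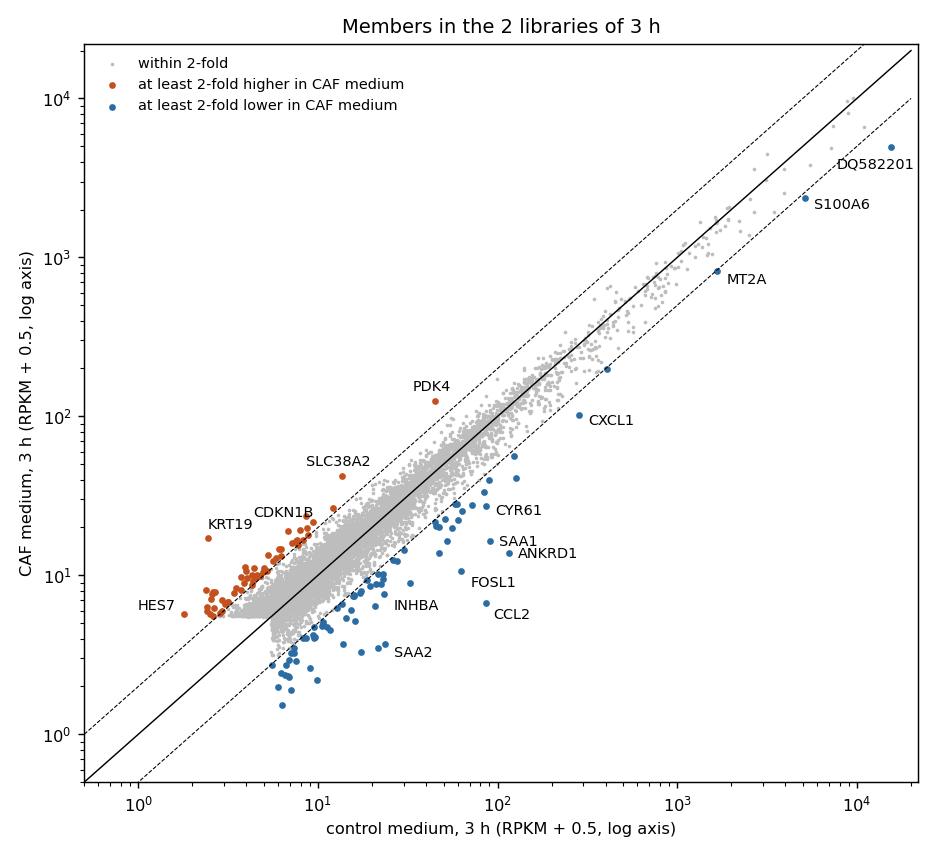
Level of each of the 7790 members at 3 h in CAF medium (vertical axis) against control medium (horizontal axis), as RPKM + 0.5 on log axes, 1 library each; the solid line marks equal levels and the dashed lines 2-fold. The 80 lower members reach far into the highly expressed genes, while of the 57 higher members only PDK4 has at least 50 RPKM in CAF medium.

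Chemokines, the secreted attractants of leukocytes, formed the gene list with the lowest median. Of the 12 chemokine genes listed, 6 were members, all 6 were lower in CAF medium and 5 of them were at least 2-fold lower, with a median log2 difference of -1.34 against 0.06 over all members. CCL2, which attracts monocytes, had 6.22 RPKM in CAF medium and 85.28 RPKM in control medium (136 reads in CAF medium and 1693 in control medium, log2 difference -3.67). This was the largest difference of all members, a ratio of 0.0729 with a 95% counting interval of 0.0608 to 0.0869. Intervals of this kind cover counting error only, not the spread between cultures. The 10 later libraries lay between 5.21 and 25.18 RPKM with a median of 11.33 RPKM, so the CAF medium library was inside their range and the control library was 3.39 times the highest of them.

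The neutrophil attractants of the CXC family were lower as well. CXCL1 had 102.13 RPKM in CAF medium and 283.73 RPKM in control medium (log2 difference -1.47; ratio 0.360, counting interval 0.346 to 0.374). IL8, now named CXCL8, had 21.83 RPKM in CAF medium and 59.7 RPKM in control medium (-1.43). CXCL2 had 8.35 RPKM in CAF medium and 20.49 RPKM in control medium (-1.25). Unlike CCL2, all 3 had control values inside the range of the later libraries, which reached 305.40 RPKM for CXCL1, 305.49 RPKM for IL8 and 22.42 RPKM for CXCL2. CXCL3 (3.54 RPKM in CAF medium, 9.02 RPKM in control medium) was lower by 1.24 on the log2 scale, with a control above the later maximum of 8.23 RPKM as for CCL2, and CXCL5 (363.08 RPKM in CAF medium, 568.6 RPKM in control medium) was lower by 0.65. CXCL1, CXCL2 and CXCL3 are close copies of each other, and how reads shared between them were assigned is not given in the sources used here. With the mean of the 6 and 12 h controls in place of the 3 h control, all 6 members were still lower, 3 of them at least 2-fold, with a median of -0.97. Here and below, a later control differs from the 3 h CAF medium library in time as well as in medium. Such a comparison cannot tell medium from time.

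The promoters of CXCL1, CXCL2, CXCL3 and IL8 (CXCL8) are shown because NF-kB acts on chemokine genes through short kappaB elements near the start site. No promoter was available for CCL2, which had the largest difference, so it was not searched. RefSeq promoters (GRCh38.p14) were searched on both strands for the letters GGNNTTTCC, and the matches are in capitals below. Each stretch is read 5′ to 3′ on the strand of its gene and covers the bases from 110 to 31 upstream of the start site, which lies outside the transcribed gene. CXCL1 (chr4:73869283-73869362, plus strand) has matches that begin 78 and 53 bases upstream, CXCL2 (chr4:74099226-74099305, minus strand) 77 and 53, CXCL3 (chr4:74038720-74038799, minus strand) 78 and 53, and CXCL8 (chr4:73740459-73740538, plus strand) 91.
CXCL1: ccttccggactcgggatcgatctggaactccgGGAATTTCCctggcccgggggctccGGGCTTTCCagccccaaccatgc
CXCL2: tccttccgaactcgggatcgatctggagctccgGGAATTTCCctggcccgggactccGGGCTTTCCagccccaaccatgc
CXCL3: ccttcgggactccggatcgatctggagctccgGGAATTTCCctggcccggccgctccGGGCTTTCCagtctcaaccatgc
CXCL8: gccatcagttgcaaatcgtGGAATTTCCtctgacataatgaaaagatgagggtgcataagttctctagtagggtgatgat
The first 3 genes share both matches, with the same letters, at almost the same distance from the start. Over promoters of 250 bases before to 50 after the start, such a match was found in 9 of the 48 lower members that had a promoter in the table (18.8%), against 441 of 6378 members (6.91%) and 1710 of all 27305 promoters (6.26%). It was found in 1 of the 41 higher members with a promoter (2.44%). A promoter was available for 48 of the 80 lower members and for 6378 of all 7790 members. Among the NF-kB genes described below, RELB had none to search, NFKB2 had 0 matches and BIRC3 had 1. A match is a run of letters and not a shown binding site. The 3 CXC genes count separately here although they are copies. CXCL1, CXCL2, CXCL3, IL8 and BIRC3, all named here in connection with NF-kB, are among the 9 lower members with a match. The share without these genes was not worked out, so the 18.8% does not speak for the lower members as a whole.

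Other secreted factors were lower in the same library pair. Of 19 cytokine and growth factor genes 13 were members, 11 of them lower and 4 at least 2-fold lower, with a median of -0.44 on the log2 scale. INHBA, the subunit of activin A, had 7.12 RPKM in CAF medium and 22.84 RPKM in control medium (log2 difference -1.61). CLCF1, a ligand of the IL-6 family, had 8.91 RPKM in CAF medium and 22.5 RPKM in control medium (-1.29). VEGFA, the angiogenic growth factor, had 19.51 RPKM in CAF medium and 46.71 RPKM in control medium (-1.24). The list also held factors near no difference or above it, since PDGFA differed by 0.03 and TGFB1, with 66.73 RPKM in CAF medium and 49.36 RPKM in control medium, was higher by 0.43. LIF, another IL-6 family ligand, had 3.61 RPKM in CAF medium and 9.17 RPKM in control medium (-1.23). With the 6 and 12 h controls as comparison 2 of the 13 were at least 2-fold lower, and with the 6 to 72 h controls 1. IL6 itself was under the threshold and no member, at 0.23 RPKM in CAF medium and 4.16 RPKM in control medium.

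The NF-kB list, of subunits, inhibitors and targets, was lower almost throughout but by less. Of 24 genes 20 were members and 19 of these were lower in CAF medium, 3 of them at least 2-fold, with a median of -0.70. RELB, a subunit of the non-canonical pathway, had 4.63 RPKM in CAF medium and 15.65 RPKM in control medium (log2 difference -1.65; ratio 0.296, counting interval 0.259 to 0.337). NFKB2, its p100 partner, had 9.76 RPKM in CAF medium and 21.18 RPKM in control medium (-1.08). BIRC3, an inhibitor of apoptosis and NF-kB target, had 11.97 RPKM in CAF medium and 25.64 RPKM in control medium (-1.07). These 3 are the members past 2-fold, and for all 3 the CAF medium value lay below all 10 later libraries and the control value inside their range. The lowest later values were close, at 4.78 RPKM for RELB, 9.85 RPKM for NFKB2 and 12.9 RPKM for BIRC3. For RELB only the 48 h CAF medium library, at 16.5 RPKM, was above the 3 h control. The target SOD2, mitochondrial superoxide dismutase, was lower by 0.80 and the feedback inhibitor TNFAIP3 by 0.53. The main cytoplasmic inhibitor NFKBIA differed by -0.25, and RELA, which is not itself strongly induced by NF-kB, by -0.02. With the 6 and 12 h controls as comparison 18 of the 20 were lower, none at least 2-fold, with a median of -0.39.

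Immediate early genes were divided. Of 33 listed genes 21 were members, 14 lower and 7 higher, with 5 at least 2-fold lower, none at least 2-fold higher and a median of -0.53. FOSL1, the AP-1 subunit FRA-1, had 10.2 RPKM in CAF medium and 62.26 RPKM in control medium (log2 difference -2.55; ratio 0.164, counting interval 0.149 to 0.180). MAFF, a small MAF factor, had 2.76 RPKM in CAF medium and 6.87 RPKM in control medium (-1.18). JUN, with 39.28 RPKM in CAF medium and 78.26 RPKM in control medium, was lower just short of 2-fold (-0.99), and MYC was lower by 0.62. Other AP-1 and early genes did not follow, as JUNB was higher by 0.18, the mRNA decay factor ZFP36 by 0.44 and the antiproliferative gene BTG2 by 0.60. The remaining lower members, ANKRD1, CYR61 and CTGF, are also on the list of YAP and TEAD targets.

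ANKRD1, a nuclear ankyrin repeat protein, had 13.41 RPKM in CAF medium and 114.87 RPKM in control medium (775 reads in CAF medium and 6025 in control medium, log2 difference -3.05; ratio 0.117, counting interval 0.108 to 0.126). CYR61, the matricellular protein now named CCN1, had 26.76 RPKM in CAF medium and 85.97 RPKM in control medium (-1.67). CTGF, its relative now named CCN2, had 19.33 RPKM in CAF medium and 54.93 RPKM in control medium (-1.48). These 3 genes stood out by the control library, which was 3.15 times the highest of the 10 later libraries for ANKRD1 (36.41 RPKM), 1.80 times for CYR61 (47.64 RPKM) and 3.59 times for CTGF (15.3 RPKM). The CAF medium library was inside the later range for ANKRD1 and CYR61, and for CTGF it was itself above that range. With the 6 and 12 h controls as comparison ANKRD1 differed by -0.65, CYR61 by -0.44 and CTGF by 0.75. With all 5 later controls the values were 0.01 for ANKRD1, 0.06 for CYR61 and 0.79 for CTGF. CTGF in the 3 h CAF medium library was thus lower than in the 3 h control and higher than in the later controls. The later controls differ in time as well, so medium and time cannot be told apart in this turn.

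The list of YAP and TEAD targets had 12 members of 17 genes, 9 lower and 3 higher, with 3 at least 2-fold lower and a median of -0.36. The pathway's own factors differed little, at 0.19 for YAP1, 0.00 for its paralogue WWTR1 and 0.09 for TEAD1, while TEAD4 was lower by 0.89. Against the 6 and 12 h controls the list's median was 0.03 and 6 of 12 members were lower. The upstream stretches of CTGF and ANKRD1 are shown because they carry the letters GGAATG, the core of the TEAD element, more than once. No promoter was available for CYR61, so it was not searched. Matches are in capitals, each stretch is read 5′ to 3′ on the strand of its gene and comes from RefSeq (GRCh38.p14). CTGF (chr6:131951453-131951552, minus strand) has matches that begin 169, 104 and 95 bases upstream of the start site, and ANKRD1 (chr10:90921208-90921317, minus strand) 220 and 128 bases upstream.
CTGF: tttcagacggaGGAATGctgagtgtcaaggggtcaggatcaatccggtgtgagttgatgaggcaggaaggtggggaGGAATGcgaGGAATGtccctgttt
ANKRD1: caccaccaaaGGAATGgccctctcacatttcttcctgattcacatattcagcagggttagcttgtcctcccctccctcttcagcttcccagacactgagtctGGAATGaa
These letters, searched on both strands, were found in 9 of 48 promoters of lower members (18.8%) and 6 of 41 of higher members (14.6%), against 681 of 6378 members (10.7%) and 3836 of all 27305 promoters (14%).

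The 3 serum amyloid A genes were lower, of which SAA1 and SAA2 encode secreted acute phase proteins that liver and epithelia make in inflammation, and SAA4 a constitutive relative. SAA1 had 16.04 RPKM in CAF medium and 90.21 RPKM in control medium (log2 difference -2.46). SAA2 had 3.19 RPKM in CAF medium and 23.25 RPKM in control medium (-2.69). SAA4 had 2.77 RPKM in CAF medium and 16.86 RPKM in control medium (-2.41). For SAA1 and SAA2 the control library was the highest and the CAF medium library the lowest of all 12, with the 10 later libraries between 27.53 and 77.09 RPKM for SAA1. SAA1 and SAA2 are near-identical copies and SAA2 and SAA4 are neighbours joined by read-through transcripts, so the split of reads among them is uncertain. Of the 25 genes in the list of STAT3 and acute phase genes 15 were members, 11 lower and 4 higher, with a median of -0.50. SAA1 and SAA2 were the 2 past 2-fold. The fibrinogen chains FGA, FGB and FGG were lower by 0.65, 0.50 and 0.84, while PIM1, a kinase induced by STAT3, was higher by 0.60.

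The BMP and ID list had 6 members of 13 genes, all 6 lower, with a median of -0.50. ID1, an inhibitor of basic helix-loop-helix factors and a direct BMP target, had 27.0 RPKM in CAF medium and 71.96 RPKM in control medium (log2 difference -1.40; ratio 0.375, counting interval 0.348 to 0.404). Its control value was inside the later range of 47.86 to 164.12 RPKM and its CAF medium value was below it. ID2 was lower by 0.93 and ID3 by 0.77, both short of 2-fold.

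Among ligands and feedback genes of the MAPK and EGF pathway, 10 of 23 were members, 7 lower and 3 higher, with a median of -0.31. EREG, an EGF receptor ligand, had 1.8 RPKM in CAF medium and 6.37 RPKM in control medium (log2 difference -1.58). The phosphatase gene DUSP1, which inactivates MAP kinases and is also a glucocorticoid target, was higher by 0.81, while DUSP4 was lower by 0.74. TNFRSF12A, the receptor of the cytokine TWEAK, had 40.68 RPKM in CAF medium and 126.5 RPKM in control medium (-1.62). CYP1B1, a target of the aryl hydrocarbon receptor, had 13.31 RPKM in CAF medium and 46.63 RPKM in control medium (-1.77). These 2 controls were above all later libraries, which reached 109.32 RPKM for TNFRSF12A and 29.42 RPKM for CYP1B1. CFD, the complement factor adipsin, had 16.0 RPKM in CAF medium and 51.65 RPKM in control medium (-1.66). OSGIN1, a stress-induced growth inhibitor on the NRF2 list, had 1.41 RPKM in CAF medium and 6.58 RPKM in control medium (-1.89), but the other 21 members of that list were within 2-fold and the list's median was 0.11. PRR7-AS1, an antisense RNA, had 2.11 RPKM in CAF medium and 8.56 RPKM in control medium (-1.80), and without knowledge of strand use in counting its reads cannot be told from those of PRR7.

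**Figure D2:**
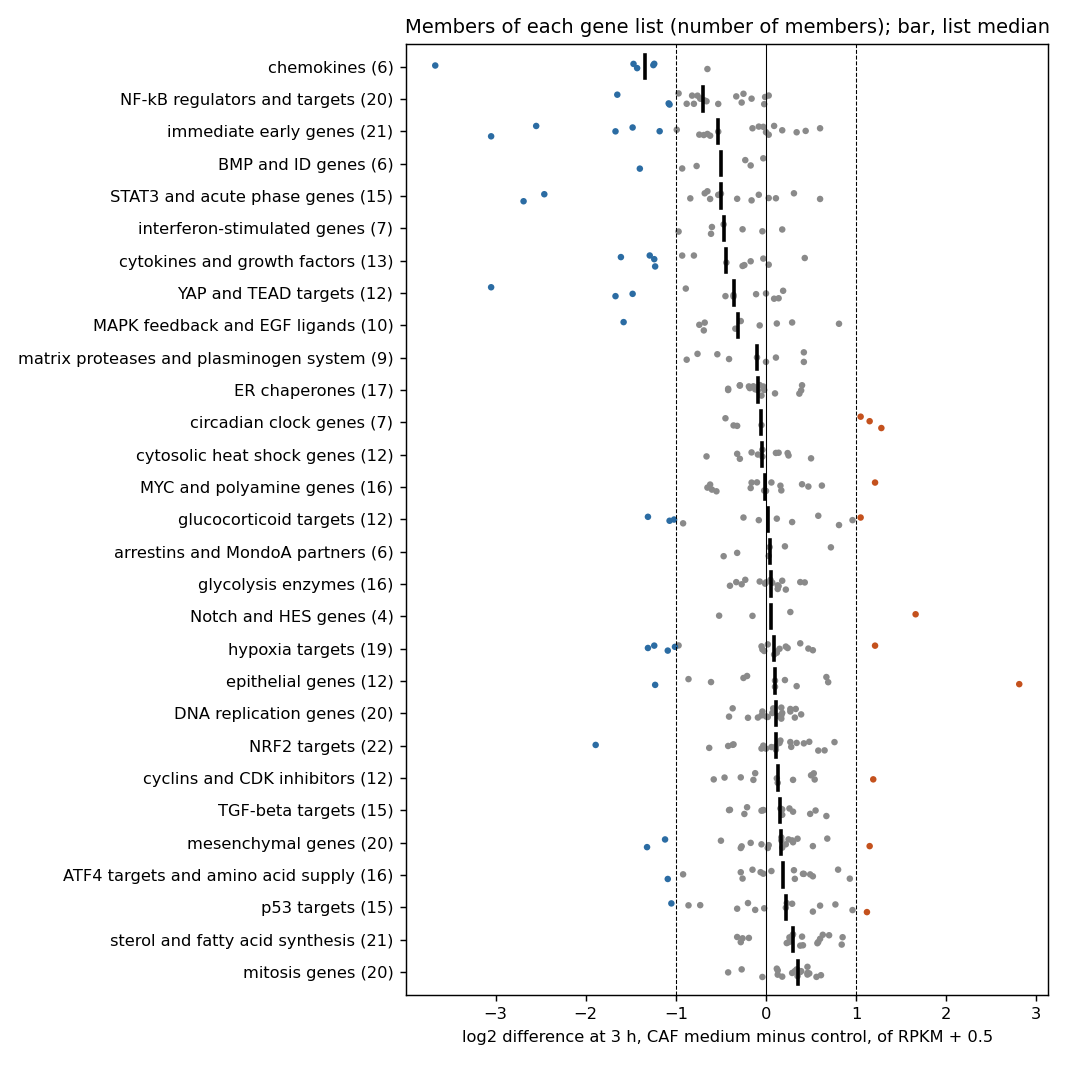
Log2 difference at 3 h (CAF medium minus control, RPKM + 0.5) of each member of the 29 gene lists, 1 point per gene, with the list median as a black bar and dashed lines at 2-fold; orange points are at least 2-fold higher and blue points at least 2-fold lower. The chemokine median of -1.34 lies past 2-fold, all others lie between -0.70 and 0.35, and most of the blue points lie in the upper lists.

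The hypoxia, glucocorticoid and p53 lists held a few members past 2-fold in both directions, with more lower than higher in the hypoxia and glucocorticoid lists. Of 19 members among 21 hypoxia targets, 4 were at least 2-fold lower and 1 was higher, with a median of 0.09. The lower ones include VEGFA, also on the list of cytokines and growth factors, and the higher one was MXI1, also on the MYC list. ANGPTL4, a lipoprotein lipase inhibitor, had 33.11 RPKM in CAF medium and 83.07 RPKM in control medium (log2 difference -1.31). STC2, stanniocalcin 2, had 6.94 RPKM in CAF medium and 15.35 RPKM in control medium (-1.09). CA9, a membrane-bound carbonic anhydrase, had 4.2 RPKM in CAF medium and 8.96 RPKM in control medium (-1.01). Other targets were near no difference, such as the glucose transporter SLC2A1 at -0.05 and BNIP3 at -0.02. With the 6 and 12 h controls 1 of the 4 was still at least 2-fold lower, and with the 6 to 72 h controls 0. Among 12 glucocorticoid targets 3 were lower and 1 higher past 2-fold, with a median of 0.02. The lower ones were MT2A, ANGPTL4, also on the hypoxia list, and BIRC3, also on the NF-kB list. The higher one was PER1, also on the circadian list. The metallothionein MT2A had 820.68 RPKM in CAF medium and 1669.12 RPKM in control medium (-1.02), shares similar sequence with MT1X (-0.92), and at 6 h differed by 0.64 in the other direction. FKBP5, a co-chaperone of the glucocorticoid receptor, was higher by 0.58. The p53 list had 15 members with a median of 0.22. On it BBC3, the apoptosis inducer PUMA, was higher by 1.12 and GADD45B lower by 1.05. Of the epithelial and mesenchymal lists, the mucin MUC1 was lower by 1.23, the matricellular protein THBS1 by 1.32 and the calcium-binding protein S100A4 by 1.12.

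KRT19, keratin 19 of simple epithelia, showed the largest positive difference, with 16.64 RPKM in CAF medium and 1.94 RPKM in control medium (716 reads in CAF medium and 76 in control medium, log2 difference 2.81; ratio 8.55, counting interval 6.75 to 11). In the libraries from 6 to 24 h it stayed at 4.89 RPKM or lower in CAF medium and 2.69 RPKM or lower in control medium. At 72 h it had 34.05 RPKM in CAF medium and 27.63 RPKM in control medium. The 3 h CAF medium library thus stood above every library up to 48 h, and the 3 h control library was close to the 6 h control of 1.56 RPKM. Against the 6 and 12 h controls the difference was 2.75. The other simple keratins did not share it, since KRT7 and KRT8 were each higher by 0.10 and KRT18 was lower by 0.21. KRT19 has processed copies in the genome, and how reads shared with them were counted is not given in the sources used here.

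SLC38A2 and PDK4 had the highest levels in CAF medium of the 15 largest positive differences. SLC38A2, the SNAT2 amino acid transporter that is raised when amino acids are short, had 41.34 RPKM in CAF medium and 13.1 RPKM in control medium (6051 reads in CAF medium and 1741 in control medium, log2 difference 1.62; ratio 3.16, counting interval 2.99 to 3.33). PDK4, the kinase that shuts pyruvate dehydrogenase in fasting, had 123.68 RPKM in CAF medium and 44.05 RPKM in control medium (1.48; ratio 2.81, counting interval 2.71 to 2.90). For both genes the 3 h control was the lowest of the 12 libraries, and the CAF medium library was inside the later range of 17.61 to 62.53 RPKM for SLC38A2 and of 53.53 to 339.26 RPKM for PDK4. Against the 6 and 12 h controls SLC38A2 was higher by 1.15 and PDK4 by 0.90, and against all 5 later controls SLC38A2 by 0.63 and PDK4 by 0.17. The list of ATF4 targets and amino acid supply, to which SLC38A2 was not assigned, had 16 members of 21, 9 higher and 7 lower, with a median of 0.19. DDIT3, the transcription factor CHOP, was higher by 0.93 and the asparagine synthetase ASNS lower by 0.15. TXNIP, a glucose-responsive arrestin, was no member, at 2.12 RPKM in CAF medium and 0.08 RPKM in control medium, and the 6 arrestin and MondoA genes that were members had a median of 0.04.

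CDKN1B, HBP1 and MXI1 were also higher. CDKN1B, the p27 inhibitor of cyclin-dependent kinases, had 19.4 RPKM in CAF medium and 8.23 RPKM in control medium (log2 difference 1.19). HBP1, a repressor of cell cycle genes, had 9.24 RPKM in CAF medium and 3.22 RPKM in control medium (1.39). MXI1, a MAX partner that opposes MYC, had 8.45 RPKM in CAF medium and 3.36 RPKM in control medium (1.21). The 3 h control was below all later libraries for CDKN1B, while for HBP1 and MXI1 the 6 h control was lower still. Their lists held little else past 2-fold, with CDKN1B the only one of 12 cyclin and inhibitor members and MXI1 the only one of 16 MYC and polyamine members. Of 20 mitosis genes 17 were higher, with a median of 0.35, and of 20 DNA replication genes 13 were higher, near the 58.5% of all members, with a median of 0.11. No member of either list reached 2-fold.

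HES7, a Notch effector of the segmentation clock, had 5.2 RPKM in CAF medium and 1.3 RPKM in control medium (log2 difference 1.66; ratio 4.01, counting interval 3.00 to 5.43). It was a member through CAF medium only. At 6 h it had 7.62 RPKM in CAF medium and 0.5 RPKM in control medium (3.02), and at 12 h 11.04 RPKM in CAF medium and 1.77 RPKM in control medium (2.35). Of the 15 largest positive differences only HES7, PDK4, HBP1 and BC015429 were larger at 6 or 12 h than at 3 h. HES1, the usual Notch target, was lower by 0.52 and the ligand JAG1 by 0.15, and with NOTCH2 they made up the 4 Notch and HES members.

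The circadian list had 7 members of 19 genes, of which 3 were at least 2-fold higher, 4 were lower short of 2-fold and the median was -0.05. ARNTL, the clock activator BMAL1, had 14.14 RPKM in CAF medium and 5.54 RPKM in control medium (log2 difference 1.28). NFIL3, a repressor of the clock output loop, had 12.35 RPKM in CAF medium and 5.31 RPKM in control medium (1.15). PER1, a clock repressor that also responds at once to serum and hormones, had 9.36 RPKM in CAF medium and 4.27 RPKM in control medium (1.05). Other repressors of the clock were lower, with CRY1 at -0.45 and NR1D2 at -0.32, as was the activator NPAS2 at -0.36. For ARNTL and NFIL3 the 3 h control was below all 10 later libraries, and their differences at 6 h were 0.31 and 0.05.

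The remaining large positive differences were of genes with varied roles. ARID5B, a DNA-binding partner of a histone demethylase, had 7.08 RPKM in CAF medium and 2.08 RPKM in control medium (log2 difference 1.55). PNRC1, a nuclear receptor coactivator, had 22.98 RPKM in CAF medium and 8.1 RPKM in control medium (1.45), and PHF21A, a subunit of the LSD1 complex, was higher by 1.42. FRAT2, an inhibitor of GSK3 in Wnt signalling, had 7.31 RPKM in CAF medium and 2.17 RPKM in control medium (1.55). C17orf59, FAM214A, NPTX1, BC015429 and AK097351 were higher by 1.76, 1.52, 1.48, 1.59 and 1.50, and the authors' table gives no further annotation for the last 2. COL1A1, a collagen I chain, had 5.81 RPKM in CAF medium and 1.91 RPKM in control medium (1.39). It was the only one of the 12 fibroblast genes that was a member, while its partner chain COL1A2 had 0.02 RPKM in CAF medium and 0.01 RPKM in control medium and COL3A1 had 0.04 RPKM in CAF medium and 0.02 RPKM in control medium. SPARC, a matrix glycoprotein, had 10.61 RPKM in CAF medium and 4.52 RPKM in control medium (1.15).

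Of the 7 transition markers chosen for the title of the study, 6 were members, and all 6 were within 2-fold at 3 h. CDH1, the epithelial adhesion molecule E-cadherin, had 6.4 RPKM in CAF medium and 10.01 RPKM in control medium (log2 difference -0.61; ratio 0.639, counting interval 0.587 to 0.697). VIM, the mesenchymal intermediate filament vimentin, had 524.98 RPKM in CAF medium and 450.87 RPKM in control medium (0.22). CDH2, N-cadherin, had 93.33 RPKM in CAF medium and 105.05 RPKM in control medium (-0.17). At this time the cells of both media already had far more CDH2 than CDH1 per kilobase. FN1, fibronectin, differed by 0.35, the repressor SNAI2 by -0.50 and the repressor ZEB1 by 0.18. EPCAM, another epithelial adhesion molecule, was no member, at 0.66 RPKM in CAF medium and 0.24 RPKM in control medium (33 reads in CAF medium and 11 in control medium). Its ratio was 2.72 (counting interval 1.34 to 5.97), and its log2 difference was 0.65 with the pseudocount of 0.5 and 1.16 with 0.1. CDH1 was lower in CAF medium at 3 h and higher at all 5 later times, with differences of 0.67 at 6 h, 0.36 at 12 h and 1.44 at 24 h. Against the 6 and 12 h controls the 3 h CAF medium library was higher in CDH1 by 0.16. The 12 epithelial members had a median of 0.10, 7 higher and 5 lower, and the 20 mesenchymal members a median of 0.17, 13 higher and 7 lower, both near the 58.5% of all members that were higher.

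Metabolic and chaperone lists stayed close to the median of all members. The sterol and fatty acid list was one-sided, with 17 of 21 members higher and a median of 0.30, none past 2-fold. In it FDFT1, squalene synthase, had 36.93 RPKM in CAF medium and 20.33 RPKM in control medium (log2 difference 0.85), and SREBF1, the sterol regulatory factor, was higher by 0.84. The sterol sensor INSIG1 (-0.32) was on the other side. Glycolysis enzymes had a median of 0.06, TGF-beta targets of 0.16, cytosolic heat shock genes of -0.04 and ER chaperones of -0.09, none with a member past 2-fold. Interferon-stimulated genes had 7 members, 6 lower, with a median of -0.47, and matrix proteases 9, 6 lower, with a median of -0.10, again with none past 2-fold.

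How far the 3 h control stands apart was read from the other 10 mRNA libraries. The median absolute log2 difference from the median of the other 11 libraries was 0.150 for the 3 h CAF medium library and 0.218 for the 3 h control library, the fourth largest of 12, while the 48 h CAF medium library had the largest, 0.309. The 6 h control library was almost as far apart as the 3 h control, at 0.216, and the 12 h control library was at 0.183. The highest value of the 12 was in the 3 h CAF medium library for 573 members (7.4%) and in the 3 h control library for 870 (11.2%). The lowest was in the 3 h CAF medium library for 237 members (3.0%) and in the 3 h control library for 724 (9.3%). At least 2-fold above the median of the others were 14 members in the 3 h CAF medium library and 83 in the 3 h control library, and at least 2-fold below were 31 in the CAF medium library and 62 in the control library. Of the 80 lower members, the CAF medium library was below all 10 later libraries for 16 (20%, against 3.6% of all members) and the control library above all 10 for 53 (66.2%, against 12.2%). Of the 57 higher members, the CAF medium library was above all 10 for 14 (24.6%, against 8.8%) and the control library below all 10 for 28 (49.1%, against 9.7%). The lower members were chosen for a high control or a low CAF medium value, and the higher ones for the reverse, so shares over those of all members had to follow. With the mean of the 6 and 12 h controls in place of the 3 h control, 28 of the 57 higher and 17 of the 80 lower members were still past 2-fold. FOSL1 (-1.99), SAA1 (-1.84), SAA2 (-1.33), INHBA (-1.07) and ID1 (-1.14) were among those still lower, and RELB (-0.67), CYP1B1 (-0.69), IL8 (-0.90) and OSGIN1 (-0.83) were no longer past it. HES7 (1.92), ARID5B (1.59), FRAT2 (1.50), HBP1 (1.44) and PER1 (1.44) were still higher, and ARNTL (0.55), CDKN1B (0.82) and NFIL3 (0.91) were no longer past it. The later controls differ from the 3 h CAF medium library in time as well as in medium, so these values do not isolate the medium. The part of the control's distance in any difference at 3 h was not tested.

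**Figure D3:**
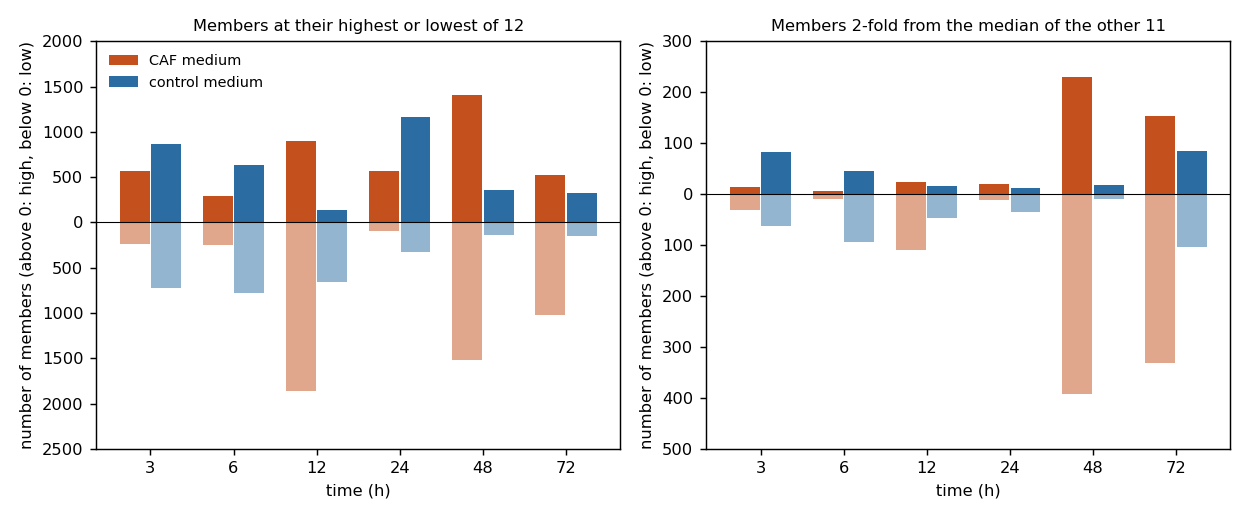
Left, number of members for which each of the 12 mRNA libraries was the highest (above 0) or the lowest (below 0, lighter) of the 12; right, number at least 2-fold above or below the median of the other 11. At 3 h the CAF medium library has fewer members than the control library on each count, 573 against 870 at their highest, and the widest counts on the right belong to CAF medium at 48 and 72 h.

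**Figure D4:**
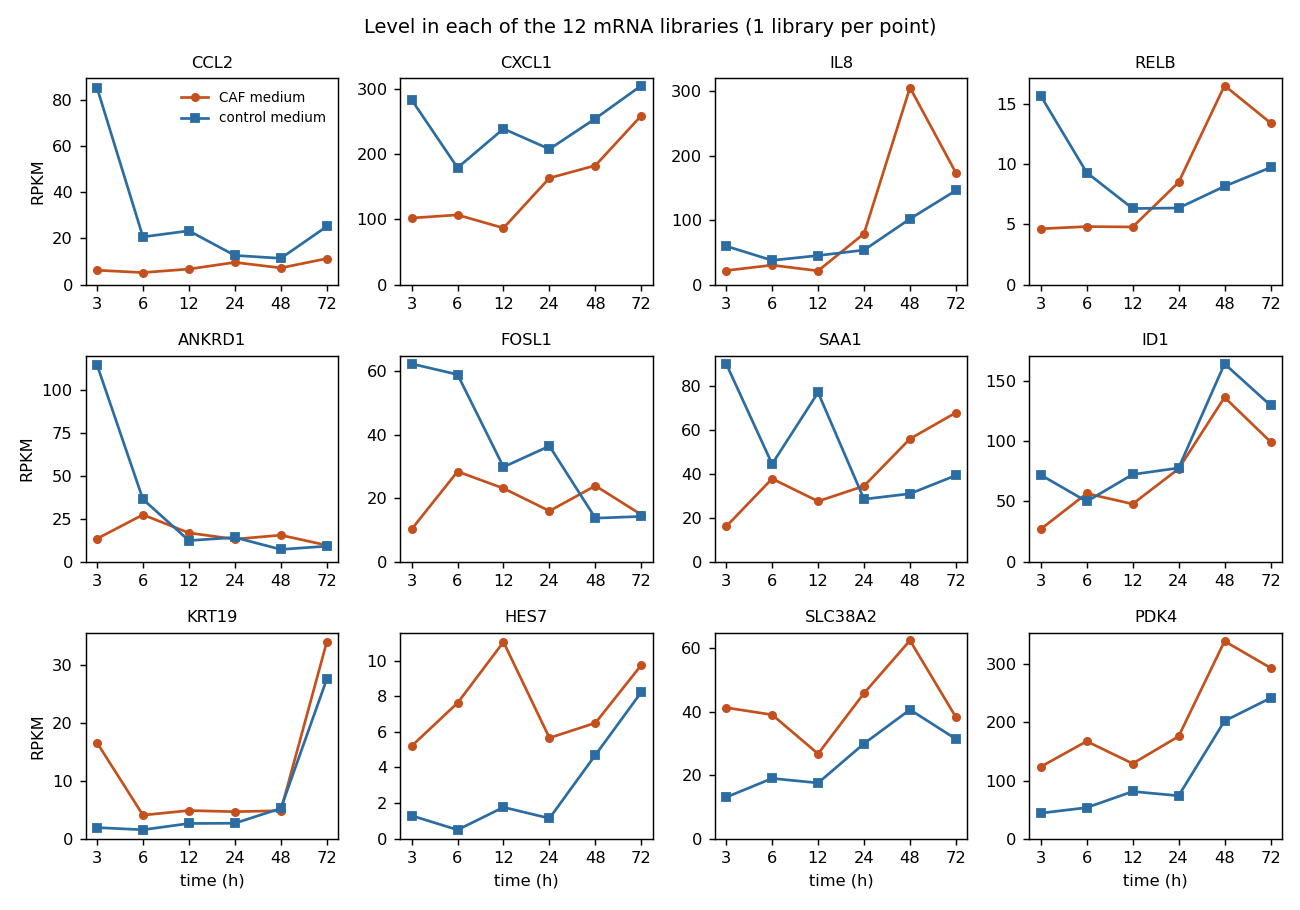
RPKM of 12 members in CAF medium (orange circles) and control medium (blue squares) at 6 times, 1 library per point, on linear axes from 0 and with times evenly spaced. CCL2 and ANKRD1 are high in the 3 h control library alone, CXCL1 stays lower in CAF medium at all 6 times, and SLC38A2 and PDK4 are higher in CAF medium at all 6 times.

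The pairs at 6 and 12 h, which share no library with the 3 h pair, gave smaller differences of mostly the same sign. Of the 80 lower members 65 were lower at 6 h, 62 at 12 h and 54 at both (67.5%, against 33.7% of all members). Their median log2 difference was -1.25 at 3 h, -0.47 at 6 h and -0.53 at 12 h, and 75 of 80 had a smaller size at 6 h than at 3 h. Of the 57 higher members 55 were higher at 6 h, 47 at 12 h and 47 at both (82.5%, against 32.6%). Their median was 1.19 at 3 h, 0.80 at 6 h and 0.54 at 12 h. A smaller size at other times is partly set by choosing the members at 3 h. CCL2 kept differences of -1.89 at 6 h and -1.72 at 12 h, with 5.21 and 6.73 RPKM in CAF medium and 20.67 and 23.29 RPKM in control medium. ANKRD1 differed by -0.40 at 6 h and 0.43 at 12 h. CLCF1 was lower by 1.80 at 6 h and 1.39 at 12 h, both more than at 3 h.

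**Figure D5:**
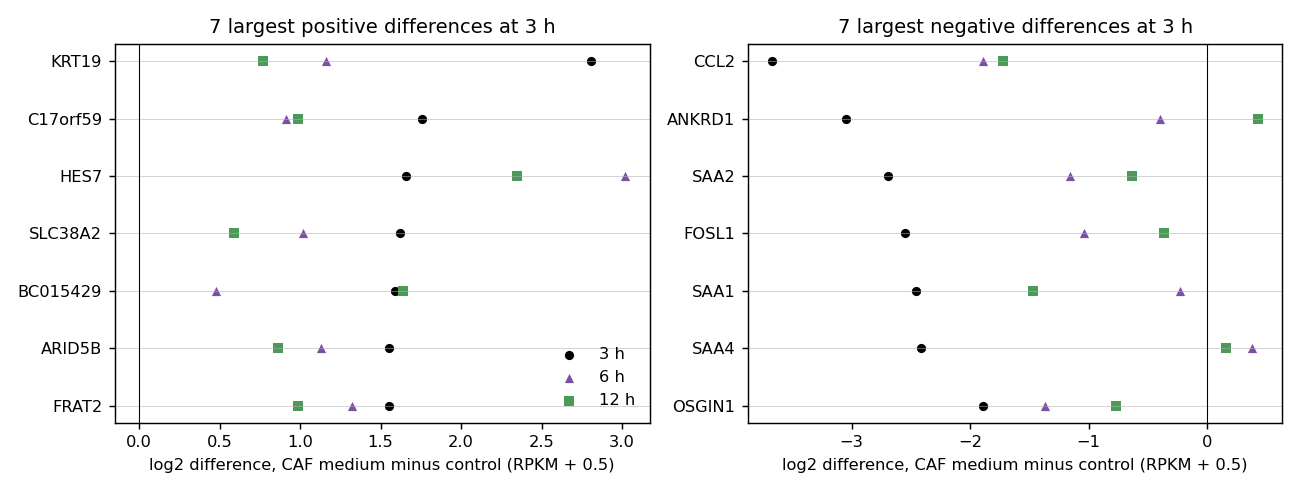
Log2 difference (CAF medium minus control, RPKM + 0.5) at 3 h (black circles), 6 h (purple triangles) and 12 h (green squares) for the 7 members with the largest positive (left) and the 7 with the largest negative (right) differences at 3 h among gene models of at least 400 bases. Most points at 6 and 12 h lie nearer to 0 than those at 3 h, HES7 is larger at both later times, and SAA4 lies on the positive side at 6 h.

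Gene models under 400 bases were 38 of the members, of which 7 were at least 2-fold lower and none higher. Of all members 1.03% were at least 2-fold lower and 0.732% at least 2-fold higher. The lower ones include the snoRNA SNORD104, at 1.71 RPKM in CAF medium and 9.41 RPKM in control medium (4 and 20 reads, counting interval of the ratio 0.0451 to 0.542). They also include the snoRNA host gene SNHG9, at 1.03 RPKM in CAF medium and 5.81 RPKM in control medium (7 and 36 reads, 0.0663 to 0.402). For MIR548I4, with 4 reads in CAF medium and 10 in control medium, the interval of 0.0832 to 1.26 included no difference. Whether reads of longer overlapping transcripts were assigned to such models is not stated in the labels.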

How the data were processed

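Polyadenylated RNA of A549 cells was sequenced from directional libraries, 1 per medium and time. The values are RPKM with the gene model length (bases, another deposited column), deposited by the authors to 2 decimals. TopHat2, edgeR and the build hg19 are named per the submitters' processing notes. Their versions, how reads were counted and whether strand was used, the gene annotation, and how the 2 biological replicates became 1 column were not given in the sources used here. Columns were matched to samples through the code in each sample description, and 0 value columns were left without a sample.

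From the RPKM, log2 differences with a pseudocount of 0.5 were computed for genes with at least 5 RPKM in either 3 h library, in Python 3.11.15 with pandas 2.3.3, numpy 2.4.6 and scipy 1.17.1, and plotted with matplotlib 3.10.9. The pseudocount understates the difference of low genes. A difference of at least 2-fold was counted, with no test, since each medium has 1 library at 3 h. Depth was worked out from the steps between low values of gene models under 400 bases, and 100% of the 69 to 119 values per library were whole reads within 0.1 read. Ratios have exact (Clopper-Pearson) 95% counting intervals from the reads so recovered. Promoter sequences are from RefSeq (GRCh38.p14) and matched 6378 of the members by symbol or gene ID.

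Named are, among gene models of at least 400 bases, the 15 largest differences in each direction, up to 4 members past 2-fold in each of 29 gene lists, and 7 transition markers, apart from items that are not reported here. Other list members were named after their values were seen, to show the spread of a list. The members and lists were chosen with earlier results of these data known. Alternatives were other pseudocounts, filters, scalings and fold thresholds, and later controls in place of the 3 h control. The small RNA libraries were not used here.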

Additional observations from a re-analysis of the deposited data

Results flagged for a closer look

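Of the 55 genes past 2-fold at 3 h that the naming rule takes, 12 were past 2-fold in the opposite direction at a later time, each in 1 library per medium, and the difference between the times was not tested. NPTX1 was higher in CAF medium at 3 h (log2 difference 1.48) and lower at 72 h (-1.19). The other 11 were lower at 3 h and higher later, 10 of them in the 48 h pair, whose CAF medium library was also the most distant of the 12. Of the 12, INHBA had the largest later difference, higher by 1.93 at 48 h, with 72.33 RPKM in CAF medium and 18.66 RPKM in control medium. IL8 was higher by 1.58, with 305.49 RPKM in CAF medium and 101.95 RPKM in control medium. The NF-kB genes NFKB2 and BIRC3 were higher at 48 h by 1.44 and 1.24. The EGF receptor ligand EREG was higher by 1.21, CYR61 by 1.20, ANKRD1 by 1.06, VEGFA by 1.05 and STC2 by 1.02 at the same time. SAA4 was higher by 1.36 at 24 h and by 1.22 at 48 h, and CFD by 1.05 at 24 h. Members that the rule does not take turned as well. Among them MAFF was lower at 3 h (-1.18) and higher at 48 h by 1.65, with 12.48 RPKM in CAF medium and 3.63 RPKM in control medium. BC005927 differed by -1.17 at 3 h and by 1.85 at 48 h.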

How the results depend on the processing

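The counts past 2-fold depended on the filter, the fold and the control. Against 57 higher and 80 lower members, requiring 5 RPKM in both libraries gave 19 and 47, 1 RPKM in either gave 167 and 151, no filter gave 193 and 170, and 20 RPKM in either gave 5 and 39. A threshold of 1.5-fold gave 364 and 361, and a counting interval past no difference gave 3431 and 2275, so most members differed by more than counting error, which does not include the spread between cultures. With the mean of the 6 and 12 h controls in place of the 3 h control 48 members were higher and 21 lower, and with the 6 to 72 h controls 14 and 24. These settings change the time as well as the control library. Of the 57 higher members 28 and 9 were still past 2-fold with these controls, and of the 80 lower members 17 and 14. Among the 55 named genes past 2-fold the direction turned for CTGF (0.75) with the 6 and 12 h controls, and for ANKRD1 (0.01), CYR61 (0.06), CTGF (0.79), GADD45B (0.15) and THBS1 (0.08) with the 6 to 72 h controls, and the cause was not tested. Among the transition markers, all within 2-fold or not members, the sign turned for CDH1 (0.16) and ZEB1 (-0.24) with the 6 and 12 h controls, and for EPCAM (-0.57), CDH2 (0.22), FN1 (-0.28) and ZEB1 (-0.17) with the 6 to 72 h controls. Pseudocounts of 0.1 and 1, median centring, upper quartile scaling and leaving out short models kept both counts within 1.5 times and all but the last, which was run on the counts alone, turned the direction of none of those 55 genes. Counts in the gene lists under other settings were chosen after seeing the data. With the 6 to 72 h controls the chemokines were lower in 6 of 6 members (median -1.18), NF-kB genes in 17 of 20 (-0.51), immediate early genes in 11 of 21 (-0.01) and YAP and TEAD targets in 1 of 12 (0.10). At 3 h no paired analysis was possible because each medium has 1 library per time and the labels give no replicate numbers.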

Other observations

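Some gene families defined by name lay mostly on one side at 3 h. Their counts of lower members are to be read against the 41.3% of all members that were lower. The cytosolic S100 genes, small calcium-binding proteins, had 7 members, 6 of them lower in CAF medium, with a median log2 difference of -0.80 against 0.06 over all members, and 1 of them, S100A4, is also on the mesenchymal list. S100A6 had 2349.12 RPKM in CAF medium and 5152.07 RPKM in control medium, and S100A3 had 19.9 RPKM in CAF medium and 44.82 RPKM in control medium. For S100A6, S100A3 and S100A4 the control library was above all later libraries. Those reached 3729.47 RPKM for S100A6, 32.84 RPKM for S100A3 and 78.59 RPKM for S100A4. At 6 h S100A6 differed by 0.28, S100A10 by 0.22, S100A11 by 0.22, S100A13 by 0.46 and S100A16 by 0.06. At that time S100A3 differed by -0.16 and S100A4 by -0.37. All 10 host genes of snoRNAs (SNHG) were lower, with a median of -0.54, and SNHG15 and SNHG9 were past 2-fold. At 6 h SNHG5 (0.35), SNHG6 (0.30) and SNHG8 (0.12) were higher in CAF medium and the other SNHG members were lower. Ribosomal protein genes were lower in 58 of 76 members with a median of -0.22 and a range of -0.87 to 0.25. Nuclear complex I genes were lower in 28 of 43 with a median of -0.11. Zinc finger genes (ZNF) showed no such side, with 47 higher and 48 lower of 95. These families were chosen with the values in view.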
